A study of Mus musculus with 15 samples.

Results

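The Janus kinases and their transcription factors were followed here across 15 mouse spleens that carried acute promyelocytic leukaemia (APL), in which blasts stop at the promyelocyte step of neutrophil formation. The genes were the kinases Jak1, Jak2, Jak3 and Tyk2 and the signal transducers Stat3, Stat5a and Stat5b. Their members were all probesets whose only annotated symbol was 1 of these 7 genes, which gave 183 of 229581 probesets on the array, between 20 for Stat5a and 29 for Jak2. A gene's value is the median log2 intensity over its probesets. The 15 arrays formed 1 group, spleen tissue with APL from Bl/6 Taconic mice; the labels name no transgene, allele, agent, age or healthy spleen. Whether each tumour was from its own animal is not stated, so a p-value covers only array-to-array spread, which may be partly technical. Of the 4 detected promyelocyte markers, Mpo, myeloperoxidase, lay at 12.91 ± 0.27 (log2, SD, n = 15) and Ctsg, cathepsin G, at 12.20 ± 0.24. Ms4a3 lay at 11.46 ± 0.47 and Prtn3 at 8.64 ± 0.37. Camp, a mature neutrophil marker, lay at 12.76 ± 0.39. Without a healthy spleen these levels cannot check the label.

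Janus kinases sit on the inner tails of cytokine receptors. When a ligand joins the receptor chains, the kinases phosphorylate each other, the receptor and a STAT protein, which pairs with a second STAT, enters the nucleus and binds DNA. In the myeloid lineage Jak2 serves the receptors for interleukin 3, granulocyte-macrophage colony stimulating factor and erythropoietin, largely through Stat5a and Stat5b, while the granulocyte colony stimulating factor receptor and the interleukin 6 family act largely through Stat3 with Jak1 and Jak2. Jak3 works with the common gamma chain of lymphoid cytokine receptors, and Tyk2 with Jak1 at interferon receptors. These are steps of protein phosphorylation, whereas the arrays read RNA.

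The median intensity of an array lay between 107.6 and 128.5. Tumor_9509 and tumor_9514 stood apart, with the lowest medians, a correlation with each other of 0.949 over 9766 detected genes and one of at most 0.90 with any other array. Their summed erythroid marker intensities of 7660 and 6070 lay above the 930 to 5750 of the other 13 tumours, and their summed promyelocyte marker intensities of 11400 and 11800 lay below the 12100 to 18700 of the others. The part of these differences in the results was not tested, and results are given with and without both tumours. In bulk tissue, fewer cells of a type and less RNA per cell cannot be told apart.

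Bases upstream of the genes of Jak2 and Stat3 are shown because these members spread most between tumours. Both come from RefSeq on GRCm38.p6, read in the direction of the gene and ending before its first annotated base. Jak2 (chr19:29251553-29251802, plus strand) and Stat3 (chr11:100939595-100939790, minus strand) follow, with GC boxes (GGGCGG) and CCAAT letters, on either strand, in capitals.

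Jak2: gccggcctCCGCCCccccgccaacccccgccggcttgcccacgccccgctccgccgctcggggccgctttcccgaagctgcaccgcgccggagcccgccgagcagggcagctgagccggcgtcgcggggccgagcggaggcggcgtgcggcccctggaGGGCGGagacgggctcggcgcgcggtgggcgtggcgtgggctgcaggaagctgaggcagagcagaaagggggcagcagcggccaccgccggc

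Stat3: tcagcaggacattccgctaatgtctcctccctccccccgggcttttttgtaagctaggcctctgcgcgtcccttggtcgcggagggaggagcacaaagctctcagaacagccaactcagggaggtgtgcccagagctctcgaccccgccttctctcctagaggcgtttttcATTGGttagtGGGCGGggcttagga

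The Jak2 stretch had 80.8% G or C, 37 CpG steps and 2 GC boxes, and the Stat3 stretch 59.2% G or C, 10 CpG steps, 1 GC box and 1 CCAAT. None of the 9 windows of 300 bases of these genes held the STAT binding letters TTCNNNGAA, which 8.3% of 32851 such windows held. A GC box stood in 7 of the 9 windows and in 35.7% of all windows. CCAAT stood in 3 of the 9 windows and in 37.4% of all, and TATAAA in 0 of 9 and 13.6%. A match describes the letters alone, and its absence says nothing of a factor.

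Among the kinases, Jak2 differed most between tumours. It ran from 5.99 in tumor_9509 through a median of 7.23 to 7.84 in tumor_9504 (log2), with a mean of 7.03 ± 0.52 (SD, n = 15). Tumor_9504 stood alone at the top, above tumor_9520 at 7.50, while tumor_9509 and tumor_9523, at 6.18, lay under 6.41, the limit below which a gene value was taken as possible background. The SD of Jak2 was larger than that of 91.1% of detected genes. Without tumor_9509 and tumor_9514 it was 0.43, larger than 89.7%. No fold is given between the ends of this range, as the low end may be background.

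The probesets of Jak2 moved together. Of its 29 probesets, 26 lay above their own 15-tumour median in tumor_9504 and 24 in tumor_9520, against 1 in tumor_9492, 1 in tumor_9523, 2 in tumor_31 and 3 in tumor_9509. With probesets ranked by identifier, the mean of those at odd ranks and the mean of those at even ranks correlated at 0.96 across tumours, both with all 15 and with 13. The medians over detected genes with at least 3 probesets were 0.78 and 0.73. The brightest probeset, 5553169, ran from 8.62 in tumor_9523 through 9.62 to 10.43 in tumor_9504. Of the 19 probesets with a mean above the limit, 12 lay above it in both tumor_9504 and tumor_9523, and 11 of these were higher in tumor_9504. Over the 12 the median difference was 1.70 log2 units and the highest 2.39. The other 7 were under the limit in tumor_9523, where they may be background. Probeset 4615571 was the exception at -0.57. Probesets 5543451 and 5173838 differed by only 0.32 and 0.37 between this pair of tumours and had SDs of 0.16 and 0.24, while the other probesets above the limit had SDs between 0.41 and 0.91. All 3 were singled out after their values were seen, and their place in the gene was not analysed here.

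**Figure D1:**
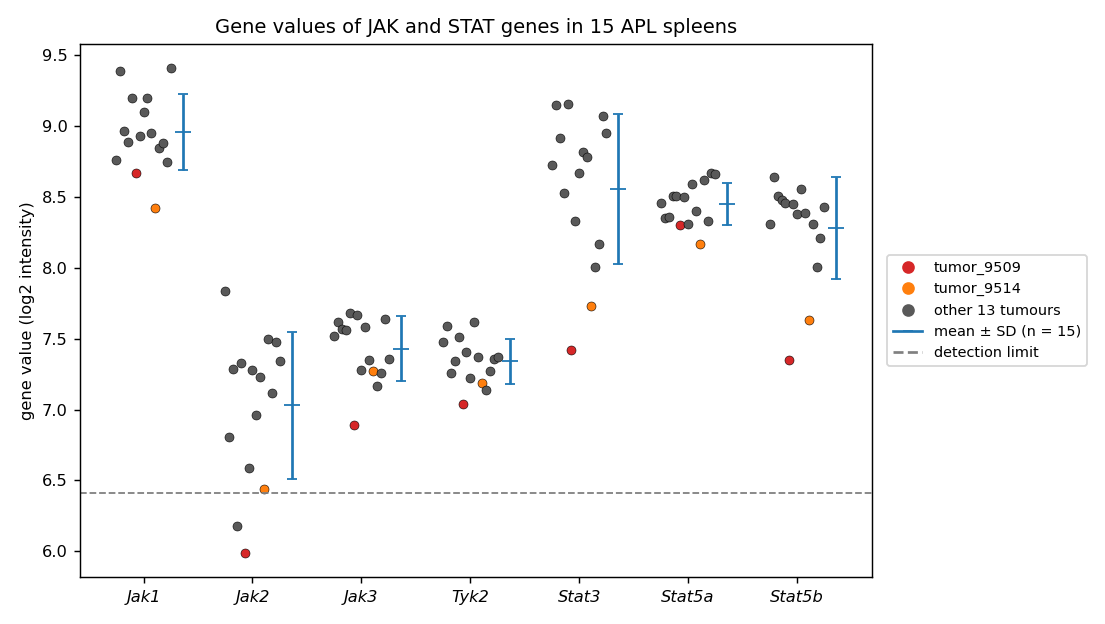
Gene values (log2 intensity, y axis) of the 7 genes, with 1 point per tumour and bars for the mean ± SD over 15 tumours; the dashed line is the 6.41 limit. Jak2, Stat3 and Stat5b have long lower tails; tumor_9509 and tumor_9514 are lowest in Stat3 and Stat5b, whereas tumor_9523 at 6.18 lies between them in Jak2.

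Jak2 lies on chromosome 19, and its low values came in the tumours where the median over chromosome 19 was low. After quantile normalization, each gene's deviation from its median across tumours was taken, less the median such deviation of all detected genes in that tumour. Over the other 371 detected genes of chromosome 19, the median deviation was -0.27 in tumor_9492, -0.26 in tumor_9523, -0.22 in tumor_31 and -0.21 in both tumor_9509 and tumor_9514, and between -0.05 and 0.13 in the remaining 10 tumours. The deviation of Jak2 was -0.62, -1.02, -0.45, -1.23 and -0.73 in those 5 tumours, in the same order, and between -0.24 and 0.66 in the remaining 10. The 5 lowest tumours were therefore the same for the gene and for its chromosome. The count of 5 follows the gap in the chromosome values, and the match was not tested. All 5 were also shared with the deposited values centred per tumour and with the mean over probesets. As the chromosome medians fell into separate groups, no correlation over all 15 is given. The Jak2 deviations formed a run in which this boundary was not the widest step. They went from -0.45 in tumor_31 to -0.24 in tumor_29 there, and from -1.02 in tumor_9523 to -0.73 in tumor_9514 within the 5.

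Within the chromosome the low values were broad in tumor_9523, tumor_31 and tumor_9492, where 85.7%, 80.9% and 78.2% of the 371 genes lay below 0. The share was smaller in tumor_9509 and tumor_9514, at 67.7% and 65.2%. In the remaining 10 tumours the highest share was 57.1%, in tumor_9529. The chromosome was also cut into first, middle and last parts, each holding an equal share of these genes in map order. Their medians were -0.23, -0.34 and -0.27 in tumor_9523 and -0.18, -0.33 and -0.31 in tumor_9492. They were -0.16, -0.25 and -0.29 in tumor_31 and -0.14, -0.24 and -0.22 in tumor_9509. In tumor_9514 they were -0.09, -0.24 and -0.33, with the first part near the -0.12 of tumor_9529. The 10 detected genes nearest to Jak2, 5 on either side, had a median deviation of -0.40 in tumor_9514, -0.37 in tumor_9492, -0.35 in tumor_31, -0.30 in tumor_9509 and -0.18 in tumor_9523. These neighbours were uneven. Plgrkt, a plasminogen receptor, was at -1.01 in tumor_9523 and -0.86 in tumor_9492, whereas Uhrf2, a ubiquitin ligase, was at -0.06 and -0.27. Counted from the lowest deviation, Jak2 ranked 57th of 372 genes in tumor_9492, 77th in tumor_9514 and 85th in tumor_31. In tumor_9523 and tumor_9509 its level was under the limit and may be background, so no rank is given and its deviations there are not exact sizes. At the other end, in tumor_9504, Jak2 was 362nd of 372 while the chromosome stood at 0.08. The part of chromosome 19 in the Jak2 values was not tested.

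**Figure D2:**
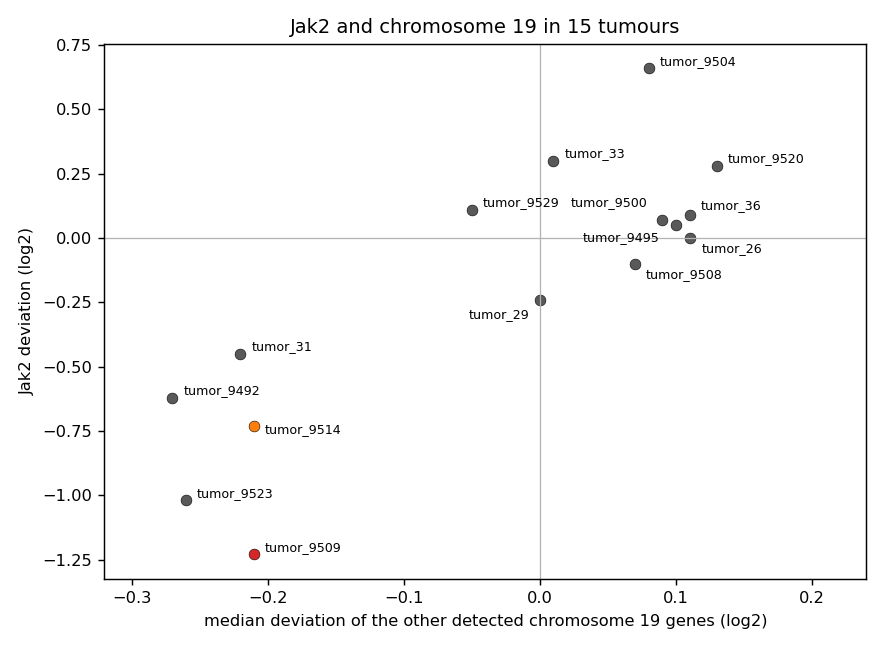
Deviation of Jak2 (y axis, log2) against the median deviation of the other 371 detected chromosome 19 genes (x axis, log2), 1 point per tumour after quantile normalization, with tumor_9509 in red and tumor_9514 in orange. The 5 tumours at -0.21 or lower on the x axis are the 5 lowest on the y axis, and tumor_9504 at 0.66 stands above tumours of like chromosome value.

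Across tumours, 193 of 9765 detected genes varied with Jak2 (limma slope on the Jak2 value, Benjamini-Hochberg adjusted p under 0.05), which is 1.98% of those tested. Of these, 136 (1.39%) were higher and 57 (0.584%) lower where Jak2 was higher. Chromosome 19 held 63 of the 136 (46.3%) and 0 of the 57, while it held 371 of the 9765 genes tested (3.8%). Without tumor_9509 and tumor_9514 no gene passed in the limma fit, with 991 at an unadjusted p under 0.05 against 1751 in the full set. All 193 kept the sign of their slope. They were picked on tumours that include these 13, so the kept sign is no independent check. The genes most like Jak2 by Pearson's r were Dnmbp at 0.90, Slco3a1, Il1r2 and Fbp1 at 0.88 each and Patl1 at 0.87. Without both tumours these were 0.82, 0.84, 0.83, 0.84 and 0.80. Dnmbp, a scaffold for actin regulators, and Patl1, an mRNA decay factor, also lie on chromosome 19. Fbp1, a gluconeogenic enzyme, rose by 2.63 ± 0.35 log2 units (SE) per unit of Jak2 (limma adjusted p = 0.003099; 0.1002 in 13 tumours), and Il1r2, the decoy receptor of interleukin 1, by 1.80 ± 0.24 (limma adjusted p = 0.003099; 0.1002 in 13 tumours).

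Jak1 was steadier. It lay at 8.42 in tumor_9514, 8.93 at the median and 9.41 in tumor_9529, with a mean of 8.96 ± 0.27 (log2, SD, n = 15). Tumor_31, at 9.39, was close to the top value. Its SD exceeded that of 41.9% of detected genes, and of 9.89% after quantile normalization, when the range narrowed to 8.77 to 9.29. The split of its 28 probesets correlated at 0.91 as deposited and at 0.82 after quantile normalization of the probesets, so the small differences were largely shared by the probesets. No gene passed with Jak1 as covariate in limma (0.0%; 766 at an unadjusted p under 0.05). The closest were Arhgef3, a guanine nucleotide exchange factor, at r = 0.84 and Traf3ip3, a lymphoid adaptor, and Ccdc174, both at 0.83.

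Jak3 and Tyk2 hardly differed between tumours. Jak3 lay at 6.89 in tumor_9509, 7.52 at the median and 7.68 in tumor_9500, with a mean of 7.43 ± 0.23 (log2, SD, n = 15). Only tumor_9509 was clear of the rest, whose lowest was 7.17 in tumor_9520. Tyk2 lay at 7.04 in tumor_9509, 7.36 at the median and 7.62 in tumor_29, with a mean of 7.34 ± 0.16. Its tumours formed an unbroken run. SDs exceeded those of 28.7% and 9.0% of detected genes. Single probesets agreed little, with a mean correlation between probeset pairs of 0.12 in both genes against 0.54 in Jak2 and 0.60 in Stat3. The split of probesets still correlated at 0.86 in Jak3 and 0.85 in Tyk2, and at 0.79 and 0.77 without tumor_9509 and tumor_9514. The medians over detected genes with at least 3 probesets were 0.78 and 0.73, all on deposited values. After quantile normalization of the probesets the split correlated at 0.75 in Jak3 and 0.68 in Tyk2 over 15 tumours. For either gene, limma called 0 genes (0.0%), with 347 for Jak3 and 227 for Tyk2 at an unadjusted p under 0.05. The closest were Vps37b, a sorting complex subunit, at r = 0.78 with Jak3 and Prss22, a serine protease, at 0.81 with Tyk2.

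Among the transcription factors, Stat3 had the widest range. It lay at 7.42 in tumor_9509, 8.73 at the median and 9.16 in tumor_9500, with a mean of 8.56 ± 0.53 (log2, SD, n = 15). Tumor_9509 and tumor_9514, at 7.73, were lowest, and tumor_31, at 9.15, was level with the top. Its SD was larger than that of 91.4% of detected genes. Without both low tumours Stat3 ran from 8.01 in tumor_9520 to 9.16, a 2.22-fold range with an SD of 0.37, larger than 82.7%. Of its 28 probesets, 27 lay above their median in tumor_9500 and 26 in tumor_31, against 3 in tumor_9520, 2 in tumor_9508 and tumor_9509 and 0 in tumor_9514. Tumor_9509 was the lowest of 15 in 18 probesets and tumor_9514 in 6. The split of probesets correlated at 0.99, and at 0.97 without both. The brightest probeset, 5182064, ran only from 12.21 to 12.93. No gene passed with Stat3 in limma (0.0%), although 1761 had an unadjusted p under 0.05. The closest were Zcchc8, a subunit of a nuclear RNA decay complex, at r = 0.84 and Dctn2, a dynactin subunit, at 0.83.

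**Figure D3:**
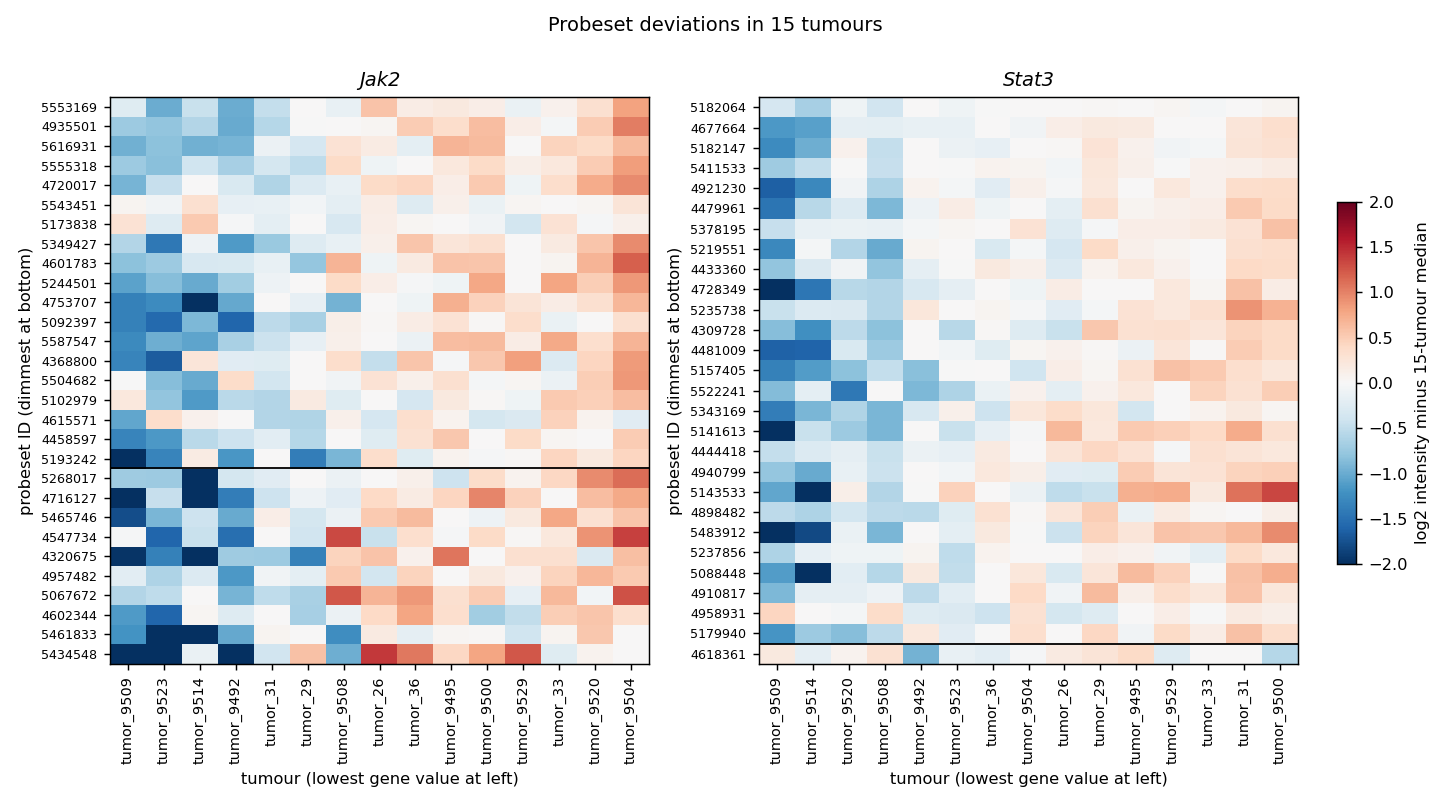
Log2 intensity minus the probeset's 15-tumour median (colour, blue low and red high) for the 29 Jak2 and 28 Stat3 probesets (rows, dimmest at the bottom; those under the black line have a mean below 6.41) in 15 tumours (columns, lowest gene value at the left). Most rows change colour at the same tumours; rows 5543451 and 5173838 of Jak2 stay pale.

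Stat5a and Stat5b, close paralogs that lie beside each other and next to Stat3 on chromosome 11, spread differently. Stat5a lay at 8.17 in tumor_9514, 8.46 at the median and 8.67 in tumor_33, with a mean of 8.45 ± 0.15 (log2, SD, n = 15). No tumour was clear of the rest, and the SD exceeded that of 5.94% of detected genes. The order depended on scaling: after quantile normalization tumor_9509 was highest at 8.73 and tumor_31 lowest at 8.14. Stat5b lay at 7.35 in tumor_9509, 8.39 at the median and 8.64 in tumor_31, with a mean of 8.28 ± 0.36. Tumor_9509 and tumor_9514, at 7.63, were clear of the other 13, which began at 8.01. Without both, its SD dropped from 0.36 to 0.16, larger than 13.9% of detected genes rather than 67.2%. With near-identical stretches, signal of either paralog on the other's probesets cannot be told apart here.

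Stat5b had the longest list of genes that varied with it. In limma 942 of 9765 passed (9.65%), 530 (5.43%) higher and 412 (4.22%) lower where Stat5b was higher. These calls rested on the arrays that stood apart: without both, 0 passed in limma, with 807 at an unadjusted p under 0.05. Of the 942, 790 kept their sign, which is no independent check either, as the 13 tumours had helped to pick them. Leaving out tumor_9509 alone gave 0 calls and leaving out tumor_9514 alone gave 114. The closest genes were Bud13, a spliceosome factor, at r = 0.92 (0.70 in 13 tumours) and Snrnp70, a subunit of the U1 snRNP, at 0.91 (0.69). Pitpna, a phosphatidylinositol transfer protein of chromosome 11, was at 0.91 and 0.88. Of the 530 genes, 74 (14%) lay on chromosome 11, which held 884 of those tested (9.05%). Of the 412 genes, 28 (6.8%) lay there. For Stat5a limma called 0 (0.0%; 956 at an unadjusted p under 0.05), and Ccdc120 was closest at r = 0.87.

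Relations among the 7 genes were weak once arrays were put on 1 scale. As deposited, all 21 pairs correlated positively across tumours, from 0.26 to 0.83. After quantile normalization r ran from -0.51 to 0.68 with a median of 0.13, 12 pairs were positive and 9 had changed sign. The highest was Stat3 with Stat5b (r = 0.68, two-sided permutation p = 0.00454; rho = 0.41, permutation p = 0.1343), which was 0.58 without the 2 tumours farthest from the Stat3 median, 0.30 without tumor_9509 and tumor_9514 and 0.71 in the 10 tumours with a 4-digit number. Adjusted over all detected genes, limma gave p = 0.1709. Jak3 with Tyk2 stayed at 0.52 or higher in each subset (r = 0.63, permutation p = 0.01151; rho = 0.58, permutation p = 0.02644; 0.52 trimmed, 0.66 in 13 tumours, 0.65 in the 10), with a limma adjusted p of 0.9998. Jak3 with Stat3 had r = 0.60 (permutation p = 0.01922) and rho = 0.55 (permutation p = 0.03442). Its r was 0.24 without tumor_9509 and tumor_9520, the farthest from the Jak3 median. It was 0.56 in 13 and 0.60 in the 10 tumours, and 0.44 to 0.72 with 1 tumour left out at a time. The limma adjusted p was 0.9984. Jak2 with Stat3 had r = 0.56 (permutation p = 0.0293; rho = 0.49, permutation p = 0.06729), 0.38 trimmed, 0.26 in 13 and 0.59 in the 10 tumours, with a limma adjusted p of 0.1875. None of the 21 pairs passed in limma, the lowest adjusted p being 0.1709, and 4 had a permutation p for r under 0.05. The paralogs ran opposite ways (r = -0.51, permutation p = 0.05366; rho = -0.59, permutation p = 0.02426; -0.16 trimmed, -0.15 in 13 tumours; limma adjusted p = 0.5254), but their r was 0.50 as deposited.

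**Figure D4:**
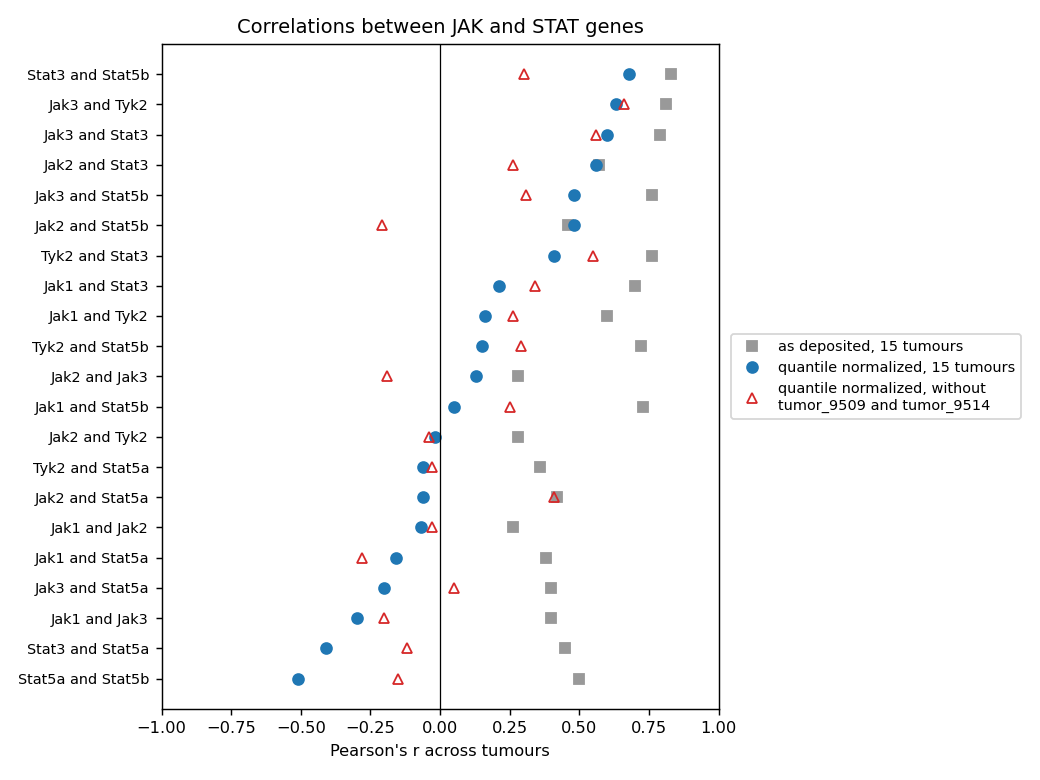
Pearson's r across tumours (x axis) for the 21 pairs (rows), as deposited (grey squares), after quantile normalization (blue circles) and without tumor_9509 and tumor_9514 (open red triangles). All grey squares lie above 0, between 0.26 and 0.83, while the blue circles run from -0.51 to 0.68.

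Ligands of the pathway were mostly dim, with 4 of 20 measured genes detected, led by Il12a at 9.13 ± 0.37 and with Il15 the most varied at 7.76 ± 0.50 (log2, SD, n = 15). None of the 4 was called with any of the 7 genes in limma. Probes differ in affinity, so a higher mean between genes does not show more RNA. Ligand genes below the detection rule were looked at after their values were seen. Il3, which encodes interleukin 3 and signals through Jak2 and the STAT5 proteins, lay at 10.36 in tumor_9504, 7.92 in tumor_26 and 7.44 in tumor_9508, and at 6.03 or lower, under the limit, in the other 12. All 6 Il3 probesets were highest in tumor_9504, between 8.70 and 11.44. Csf2, which encodes granulocyte-macrophage colony stimulating factor and uses the same beta receptor chain, lay at 8.43 in tumor_9520 and 8.12 in tumor_9495, and at 5.42 or lower in the other 13. All 5 Csf2 probesets were highest in tumor_9520. No tumour had both cytokine genes above the limit. The tumours with the highest Il3 and Csf2 values, tumor_9504 and tumor_9520, had the highest Jak2 values as deposited, at 7.84 and 7.50. Tumor_26, tumor_9508 and tumor_9495 had Jak2 at 7.23, 7.12 and 7.29, near its median. Tumor_33 was level with tumor_9520 in Jak2, at 7.48, and passed it after quantile normalization, at 7.50 against 7.48. Its Il3 and Csf2 values, at 4.64 and 3.80, were under the limit. Cish, a STAT5-induced inhibitor, was also picked after its values were seen. It was highest in tumor_9520 at 7.80 and tumor_9504 at 7.59, against 6.42 to 7.33 in the other 13, with tumor_33 at 6.82. Only 3 of the 6 Cish probesets were highest in tumor_9520, and the dimmest there, at 5.63, was under the limit. The slope of Cish on Jak2 was 0.48 ± 0.15 (SE) with a limma adjusted p of 0.09782, short of the threshold. Other STAT5 targets differed in their highest tumour. Pim1, a survival kinase, was highest in tumor_9500 at 8.99 and tumor_31 at 8.85, above tumor_9504 at 8.45 and tumor_9520 at 8.25. Myc was highest in tumor_29 at 11.77, with tumor_9520 next at 11.58 and tumor_9504 at 10.99. Pim2 and Bcl2l1 were highest in tumor_9504, at 7.54 and 7.48. The remaining detected STAT5 targets were highest in neither tumor_9504 nor tumor_9520. These coincidences are a description of 15 arrays, with no test.

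Receptor genes were detected in 16 of 27 measured cases. Ifngr1, the ligand-binding chain for interferon gamma, had the highest mean at 10.07 ± 0.40 (log2, SD, n = 15), and Csf3r, the granulocyte colony stimulating factor receptor, lay at 9.03 ± 0.58. Il3ra, the interleukin 3 binding chain, was the only receptor to vary with Jak2: it lay at 7.92 in tumor_33, 8.45 at the median and 8.87 in tumor_9514, and was lower where Jak2 was higher, with a slope of -0.54 ± 0.11 log2 units per unit (limma adjusted p = 0.02411). Without both tumours the slope was -0.40 ± 0.12 with a limma adjusted p of 0.2286. Csf2rb, the shared beta chain of the interleukin 3 and Csf2 receptors, varied with Stat5b, with a slope of 2.38 ± 0.52 (limma adjusted p = 0.01675) that became -0.22 ± 0.85 (limma adjusted p = 0.9718) without tumor_9509, where it lay at 7.13, and tumor_9514, at 8.23. The other 13 tumours held Csf2rb between 8.96 and 10.07. Its mouse paralog Csf2rb2 spread as widely over all 15 tumours, at 7.28 ± 0.79. Over the 13 tumours the SD was 0.74 for Csf2rb2 and 0.33 for Csf2rb. The signals of these paralogs cannot be told apart on shared stretches.

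Of the inhibitors, 18 of 19 were detected. Ptprc, the CD45 phosphatase, had the highest mean at 10.12 ± 0.26, and Ptpn1 and Socs6 varied most, at 7.79 ± 0.65 and 6.62 ± 0.43 (log2, SD, n = 15). Ptpn6, the SHP-1 phosphatase, was the only one that varied with any of the 7 genes, higher with Stat5b by 1.16 ± 0.24 log2 units per unit (limma adjusted p = 0.01317). Its slope in 13 tumours was 1.59 ± 0.46, larger but with a limma adjusted p of 0.362. Of the other STAT genes, Stat2, Stat4 and Stat6 were detected, none was called with any of the 7 in limma, and Stat4, which serves interleukin 12, varied most, from 6.36 in tumor_9520 through 7.01 to 8.22 in tumor_9529.

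Target genes gave few calls. Of 13 detected STAT5 targets, Myc, a growth transcription factor, had the highest mean at 10.82 ± 0.69, and Ccnd2, cyclin D2, varied most, from 7.61 through 7.98 to 10.20 in tumor_9529, which alone held that level. Only Myc was called, higher with Stat5b by 1.94 ± 0.52 (limma adjusted p = 0.03107), and its slope in 13 tumours was 0.58 ± 0.91 (limma adjusted p = 0.9063). Among 12 detected STAT3 targets, which include Myc, S100a8, a calprotectin subunit, was highest at 12.84 ± 0.12. Junb, an AP-1 factor, was lower with Stat5b, with a slope of -1.51 ± 0.43 (limma adjusted p = 0.03726), against 0.13 ± 0.72 (limma adjusted p = 0.9861) in 13 tumours. No STAT3 target was called with Stat3 itself. Of 10 measured interferon targets 4 were detected, led by Irf9 at 7.10 ± 0.57, and none was called with any of the 7 genes. Over all pathway lists, 66 of 100 measured genes were detected; 1 of 66 (1.52%) was called with Jak2, near the 1.98% over all genes, and 4 of 66 (6.06%) with Stat5b, below the 9.65% over all genes.

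Few cell type markers were called with these genes. Of 37 detected markers of 8 cell types, 2 (5.41%) were called with Jak2, against 1.98% over all genes, 2 (5.41%) with Stat5b, against 9.65%, and 0 with the other 5 genes. Those called with Jak2 were Adgre1, the F4/80 macrophage antigen, with a slope of 1.37 ± 0.30 (limma adjusted p = 0.02698; 1.42 ± 0.39 and 0.2037 in 13 tumours), and Hbb-b1, a beta globin, with -1.23 ± 0.30 (limma adjusted p = 0.04563; 0.4479 in 13 tumours). C1qb and Hmox1, on the same macrophage list as Adgre1, had slopes of -0.20 ± 0.17 and 0.02 ± 0.15 on Jak2 (limma adjusted p = 0.5465 and 0.9662). With Stat5b, Mpo was higher by 0.92 ± 0.26 (limma adjusted p = 0.03676; 0.30 ± 0.50 and 0.915 in 13 tumours) and Cd3g, a chain of the T cell receptor complex, lower, with a slope of -1.70 ± 0.46 (limma adjusted p = 0.03231; -1.18 ± 0.97 and 0.7817 in 13 tumours). Prtn3, a promyelocyte marker like Mpo, had a slope of -0.66 ± 0.41 on Stat5b (limma adjusted p = 0.2958). In the 13 tumours the median r with Stat3 was 0.51 for mature neutrophil, 0.53 for B cell and 0.55 for T cell markers. It was -0.28 for promyelocyte and -0.14 for erythroid markers, and -0.04 over all genes. With all 15 tumours the first 3 medians were 0.10, -0.10 and -0.03. With Stat5b the mature neutrophil median was 0.51 in 13 tumours and -0.08 in 15. No test was run on these medians. Summed red pulp macrophage markers were 856 in tumor_9509, 1150 in tumor_9514 and 1030 to 3100 in the rest. Summed mature neutrophil markers ran from 5870 to 28700 in the 13 tumours and were 25200 and 25800 in the pair that stood apart. The part of cell makeup in the kinase and STAT values was not tested.

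Probesets that departed from their own gene were sought next. The departure is a probeset's deviation from its 15-tumour mean minus the median deviation of its gene in that tumour. Among 154 probesets with a mean above the limit, 27 of 2310 values (1.17%) were off by 1 log2 unit or more, against 1.31% over all probesets of detected genes. Tumor_9509 held 12 and tumor_9514 held 11 of the 27. In 13 of the 27 the probeset itself lay under the limit in that tumour, so the size of its departure is not exact. Among the 14 above it, the largest were -1.46 for Stat5b probeset 4862426 and 1.39 for Stat3 probeset 4958931, both in tumor_9509. Of the 4 outside this pair of tumours, Jak2 probeset 4615571 was 1.30 above its gene in tumor_9523, at 7.37, and Stat3 probeset 5522241 was at -1.13 in tumor_9520, at 7.30. Jak3 probeset 5199457 in tumor_9520 and Stat5b probeset 4394591 in tumor_9500 were low, at 5.69 and 5.73, under the limit. Over all probesets, 0.691% passed without the pair that stood apart. Single arrays have no repeat, so these values carry no test.

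**Figure D5:**
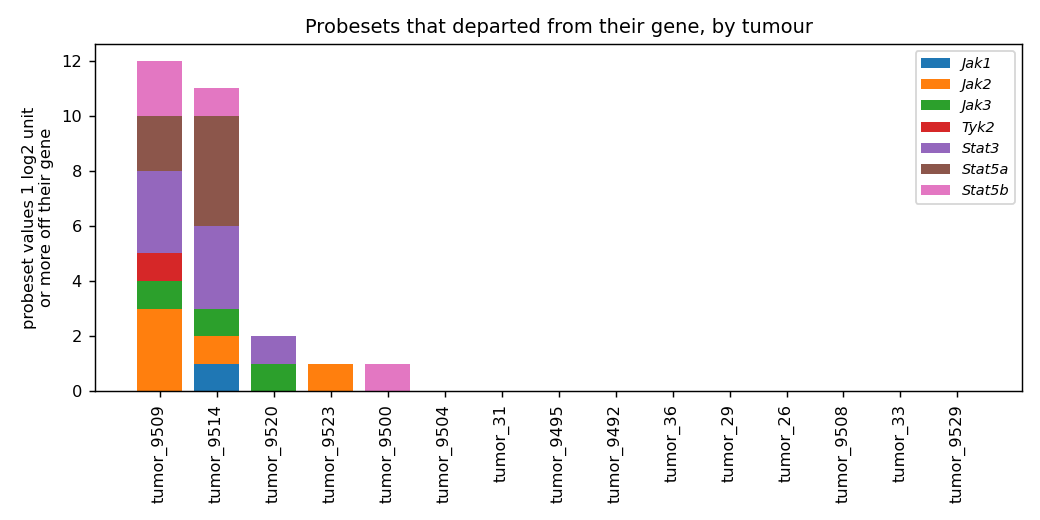
Number of probeset values 1 log2 unit or more off their gene (y axis, stacked by gene) in each tumour (x axis). Tumor_9509 and tumor_9514 hold 12 and 11 of the 27, and 10 tumours hold none.

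The only label that could mark a batch was the length of the tumour number, with 5 tumours of 2 digits and 10 of 4 digits. In limma none of 9766 detected genes differed (0.0%; 226 at an unadjusted p under 0.05). Stat3 came closest of the 7, higher by 0.50 ± 0.24 log2 units (SE) in the 2-digit tumours (8.90 ± 0.20, SD, n = 5, against 8.40 ± 0.57, n = 10; limma adjusted p = 0.9997), and the groups overlapped. Tumor_9509 and tumor_9514, the lowest in Stat3 at 7.42 and 7.73, both had 4-digit numbers and lowered that group's mean. The other 6 genes differed by 0.02 to 0.24. Without tumor_9509 and tumor_9514 limma again called 0 of 9766 genes, with 260 at an unadjusted p under 0.05.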

How the data were processed

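Per the labels' protocols, biotin-labelled cDNA was made from total RNA of 15 APL spleens; it was read on Affymetrix Mouse Exon 1.0 ST arrays. The authors deposited 1 linear intensity per probeset and array; RMA and build mm9 are named, without versions or roles, in the submitters' processing notes. Intensities were log2 transformed. Of 229581 probesets, 208397 had 1 symbol and were used; 2124 symbols were updated through a RefSeq table (GRCm38.p6, for names, chromosome and gene order). A gene was detected when its mean exceeded the 40th percentile of 16277 genes (6.41). The number of arrays limits the precision. Co-variation and numbering were fitted with limma 3.58.1 (lmFit, eBayes) in R 4.3.3, on quantile normalized values for co-variation, with Benjamini-Hochberg adjustment over all detected genes; the fits were tested on simulated data. Permutation tests drew 100000 resamples (scipy 1.17.1, Python 3.11.15). Members and lists were chosen with earlier results of these data known. Named were the 7 members, the 5 genes with the highest r per member (fewer are printed), and per list the highest mean, the largest SDs and the called gene. Of 169 listed genes 150 were measured and 103 detected; 19 were not analysed here. Jak3 probesets shared with another gene (2) were left out, and probeset positions were not used here.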

Additional observations from a re-analysis of the deposited data

How the results depend on the processing

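No paired analysis was possible because all 15 tumours form 1 group. The number of genes called with each member depended on the scale. With values as deposited limma called 957 genes with Jak1, 162 with Jak2, 0 with Jak3, 1 with Tyk2, 1121 with Stat3, 32 with Stat5a and 2619 with Stat5b. With centred tumours it called 31 with Jak2, 2 with Stat3 and 1601 with Stat5b, with the mean over probesets 175, 6 and 596, with probesets above the 25th percentile 14, 5 and 2148, and with no filter on dim genes 107 with Jak2 and 487 with Stat5b. Without tumor_9509 and tumor_9514 it called 0 with each. Leaving out 1 tumour at a time gave 12 to 341 with Jak2 (12 without tumor_9509, 93 without tumor_9514, 75 without tumor_9520, 112 without tumor_9495, 115 without tumor_26, 125 without tumor_9504 and 341 without tumor_9523), 0 to 1599 with Stat5b (0 without tumor_9509, 114 without tumor_9514, 1599 without tumor_9508) and 0 to 2 with Jak1 and Stat3. As deposited, 3 pairs passed in limma: Jak1 with Stat3 (0.04194), Jak1 with Stat5b (0.02792) and Stat3 with Stat5b (0.01282). The mean over probesets moved Stat5a to 8.65. The 5 tumours shared by the lowest Jak2 and chromosome 19 values were the same under both alternatives, which were chosen after seeing the data. The causes were not tested.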
